A study of Mus musculus with 2 samples.

Results

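Divergent gene pairs are neighbouring genes that are read away from each other from starts that lie close together, the minus-strand gene to the left and the plus-strand gene to the right. They were taken from a table of 30385 listed entries as every minus-strand entry whose end lay 0 to 1000 bases to the left of the start of a plus-strand entry, with 50 or more reads in the higher library for both members. Members were thus chosen by position and by their reads in either library. The rule found 390 pairs made of 724 entries, out of 1637 pairs that meet the distance rule at any number of reads. In 728 of these 1637 pairs 1 member had fewer than 50 reads, and in 519 both had.

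The study measured transcript 5′ ends in mouse heart by 5′RNA-seq, in which polyA RNA is neither fragmented nor cut as cDNA, so that reads gather near transcript starts. Of its 2 libraries 1 came from wild-type animals (WT) and the other from heterozygous MHC403/+ animals, which model hypertrophic cardiomyopathy (HCM) through a missense mutation in a cardiac myosin heavy chain. Both groups were strain 129/SvEv aged 8 to 16 weeks. CsA, the calcineurin inhibitor cyclosporine A, was injected subcutaneously in both (15 mg/kg, given 2 times daily, over 2 weeks), so neither library shows the heart without this drug. Biological replicates were pooled into 1 library per group, the differences below therefore have no replicate check, and p-values are not reported.

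The libraries held 5468677 (MHC403) and 5481123 (WT) reads, and 9507 entries with 50 or more reads in the higher library are called measured. A ratio is the MHC403 share of reads divided by the WT share, and its range is an exact 95% interval for counting error alone. The median measured entry had a ratio of 1.48 (log2 0.57), and median-of-ratios scaling lowers every log2 ratio by 0.55, so that 2-fold with library totals becomes 1.37-fold. The difference between the 2 members of a pair does not depend on this choice. All 8 cardiomyocyte markers were measured, 2 of them at least 2-fold lower and with a median log2 ratio of -0.38. They summed to 39360 RPM (reads scaled to the library total) in MHC403 and 61790 in WT. Fibroblast markers (6 of 8 at least 2-fold higher) summed to 3225 against 466 and macrophage markers (7 of 7 measured) to 618 against 194, while endothelial markers (0 of 8) summed to 1003 against 790. None of 4 lymphocyte markers was measured.

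Promoters that fire in both directions are common in mammalian genomes and usually lie in CpG islands, stretches rich in CG dinucleotides that mostly lack a TATA box. Many of their genes serve basic needs of every cell, such as mitochondrial function, RNA processing and DNA repair, and binding sites of ETS-family factors are known to be frequent there. In some pairs the products work together, as in the chaperonin subunits Hspd1 and Hspe1 and the type IV collagen chains Col4a1 and Col4a2, while in others they have no known link. Pairs on the mitochondrial chromosome are different, since its genes are cut out of long transcripts of each strand and have no start of their own.

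The bases between the annotated starts lie upstream of both genes of a pair. The sequences are from RefSeq promoters of the GRCm38.p6 build, and these regions are shown because their pairs span the results below, from members with nearly equal ratios to members far apart. Each is the plus strand, 5′ to 3′, from the first base after the start of the minus-strand gene to the last base before the start of the plus-strand gene, with searched motifs in capitals. Coordinates are chr1:55087933-55088147 for Hspd1-Hspe1, chr6:48841375-48841482 for Tmem176b-Tmem176a, chr7:45526269-45526329 for Ppp1r15a-Plekha4, chr7:140882310-140882393 for Sirt3-Psmd13, chr13:55321981-55322054 for Rab24-Prelid1 and chr5:114444028-114444268 for Mmab-Mvk.
Hspd1-Hspe1: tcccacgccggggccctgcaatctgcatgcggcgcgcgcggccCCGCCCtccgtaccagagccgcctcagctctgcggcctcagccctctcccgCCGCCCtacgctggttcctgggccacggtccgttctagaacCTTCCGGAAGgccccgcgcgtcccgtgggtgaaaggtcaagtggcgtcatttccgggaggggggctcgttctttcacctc
Tmem176b-Tmem176a: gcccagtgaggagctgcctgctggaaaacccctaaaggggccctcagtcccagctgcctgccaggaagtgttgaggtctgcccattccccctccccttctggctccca
Ppp1r15a-Plekha4: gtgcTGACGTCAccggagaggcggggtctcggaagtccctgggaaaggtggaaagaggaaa
Sirt3-Psmd13: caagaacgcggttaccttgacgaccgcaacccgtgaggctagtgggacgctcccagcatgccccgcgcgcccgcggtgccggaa
Rab24-Prelid1: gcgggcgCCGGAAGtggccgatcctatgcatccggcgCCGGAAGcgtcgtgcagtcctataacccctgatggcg
Mmab-Mvk: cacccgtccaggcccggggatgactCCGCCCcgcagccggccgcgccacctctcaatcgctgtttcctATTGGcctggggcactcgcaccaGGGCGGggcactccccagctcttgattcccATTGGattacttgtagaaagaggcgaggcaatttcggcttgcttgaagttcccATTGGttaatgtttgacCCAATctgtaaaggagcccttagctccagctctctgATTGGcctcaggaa

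The Hspd1-Hspe1 region of 215 bases holds matches to the GC box and the ETS core, which are spelled out below, and has a GC content of 70.2%. In the 61 bases between Ppp1r15a and Plekha4 stands a match to the cyclic AMP response element, TGACGTCA, and in the 74 bases between Rab24 and Prelid1 the ETS core occurs at 2 places. The Mmab-Mvk region of 241 bases carries CCAAT and GC box matches on both strands. None of the 8 motifs occurs between Tmem176b and Tmem176a or between Sirt3 and Psmd13. Of 380 nuclear pairs 201 had both starts in the promoter table, and 136 had 20 to 300 bases between them, with a median GC content of 64.7%.

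The ETS core was in a larger share of member promoters than of other measured promoters. Each motif was sought on both strands of windows from 250 bases before to 50 after a start. Classic core elements were TATAAA, known as the TATA box, and the CCAAT box. The GC box bound by Sp1 was searched as GGGCGG, and the core of ETS-family sites as CCGGAAG. An E-box was CACGTG, the YY1 motif was AAGATGGCG and the cyclic AMP response element was TGACGTCA. The palindromic NRF1 motif was the last. None of these strings of letters contains another. The ETS core was in 205 of 626 promoters of nuclear members (32.7%), in 15.8% of 7311 promoters of other measured entries and in 8.86% of all 32851 promoters. The YY1 motif was in 7.67%, 3.04% and 1.4% of the same sets. The GC box (67.6% and 64.8%) and CCAAT (37.4% and 36.2%) were about as frequent in members as in other measured entries, and TATAAA was in 5.59% of member promoters, 7.21% of those of other measured entries and 13.6% of all. Median observed over expected CpG was 0.854 in members, 0.763 in other measured entries and 0.384 in all promoters. Of the 711 nuclear members 496 matched a promoter by symbol, and windows of close partners cover some of the same bases, so a site can be counted for both members. Within the 136 regions between starts the ETS core was in 34, and the median difference between partners was 0.58 (log2) in pairs with it and 0.58 in those without.

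**Figure D1:**
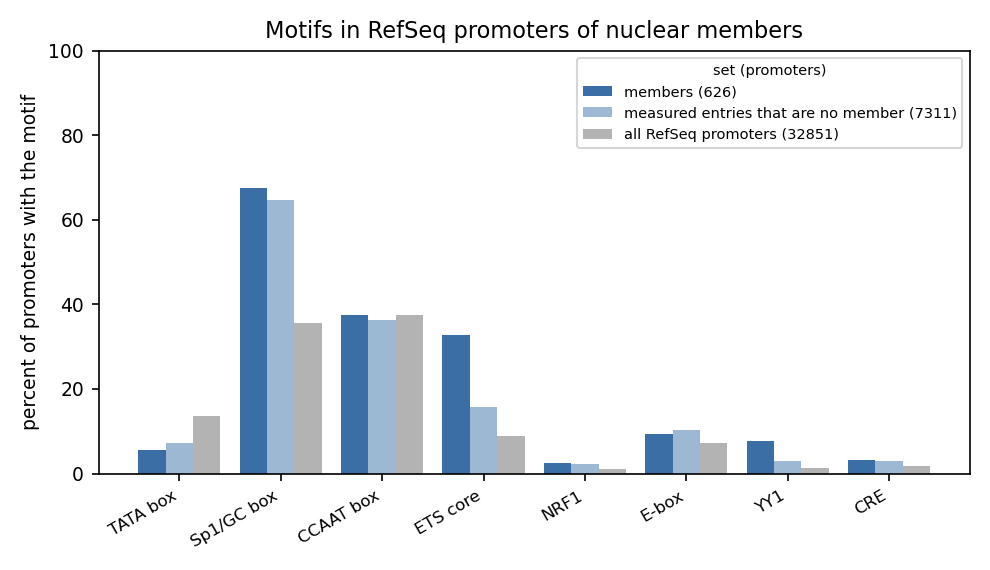
Percent of promoters (y axis) that hold each of 8 motifs (x axis) on either strand, for nuclear members of divergent pairs, other measured entries and all RefSeq promoters; windows are 300 bases long. The ETS core and YY1 bars are higher for members (32.7% and 7.67%) than for other measured entries (15.8% and 3.04%), while the GC box and CCAAT bars are close to each other.

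The gap between members had a median of 162 bases. Of the 390 pairs 10 lay on the mitochondrial chromosome and 380 on nuclear sequence, and 47 entries were in more than 1 pair, some of them repeated listings of 1 gene. The windows in which the table counts reads were narrower here than elsewhere. A window reaches 200 bases upstream of the start in 70.1% of measured entries and in 2.67% of nuclear members. In nuclear pairs it had no upstream bases in 462 of 466 member places with a gap under 200 bases, and in 35 of 294 with a larger gap. Windows of the 2 members overlapped in 1 pair, Tubgcp2-Zfp511, whose gap is 0, and in no pair did the members hold identical reads. Since the strand setting of the counting is unknown here, antisense reads inside a window cannot be told apart from a gene's own.

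A smaller share of the paired genes than of all measured entries was past 2-fold higher. At least 2-fold higher in MHC403 were 130 of 711 nuclear members (18.3%), against 26.1% of all 9507 measured entries, and at least 2-fold lower were 18 (2.53%), against 2.43%. The median log2 ratio was 0.44 in nuclear members and 0.57 in measured entries, and the middle 50% of members lay between 0.04 and 0.85. By median-of-ratios, 43 nuclear members were higher and 59 lower, where the background is 10.9% and 7.59%. The read minimum had chosen 110 nuclear members through the MHC403 library alone and 24 through WT alone, and 577 had 50 or more reads in both. In whole-tissue RNA, fewer cells of a type and less RNA per cell cannot be told apart.

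Both members were at least 2-fold higher in 16 of the 390 pairs (4.10%), both lower in 5 (1.28%), and 4 pairs (1.03%) had 1 member higher and the other lower. Over every possible pair of the 9507 measured entries the shares were 6.82%, 0.0588% and 1.27%. Since members were less often higher to begin with, the closer comparison is every nuclear minus-strand member set against every nuclear plus-strand member, 126350 combinations, in which the shares were 3.33%, 0.0609% and 0.913%. Among the 380 nuclear pairs they were 16 (4.21%), 3 (0.789%) and 4 (1.05%). In 249 nuclear pairs both members were within 2-fold.

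The difference between partners was close to that between members put together without regard to place. The median absolute difference of log2 ratio was 0.56 in the 380 nuclear pairs (1.47-fold), 0.63 over every minus-strand with every plus-strand member, and 0.70 over all pairs of measured entries. Members were 2-fold or more apart in 100 nuclear pairs (26.3%), against 29.7% over every combination of members and 35% over all measured entries. Tandem neighbours, which lie on 1 strand with the same gap, had a median difference of 0.55 (213 nuclear pairs), and convergent neighbours, whose ends face each other, 0.76 (246 pairs). How far these classes differ was not tested, since there are no replicates. Combinations share members and all pairs share the same 2 libraries.

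**Figure D2:**
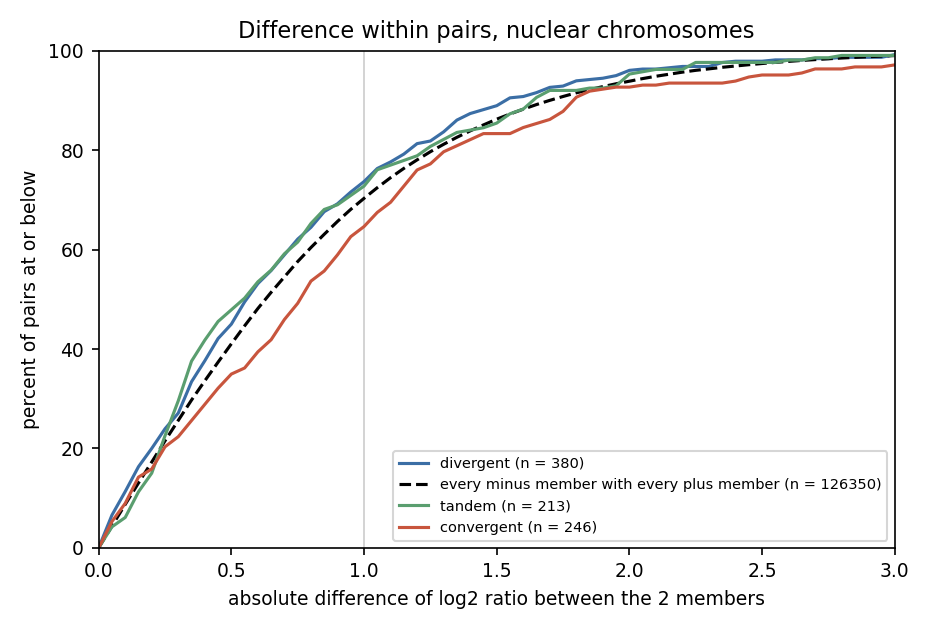
Share of pairs (y axis, percent) whose members differ by at most the absolute log2 ratio difference on the x axis, on nuclear chromosomes. Around the medians the lines for divergent and tandem neighbours lie above the dashed line of every minus-strand with every plus-strand member. The line for convergent neighbours lies below the dashed line there (medians 0.56, 0.55, 0.63 and 0.76). Elsewhere lines cross. At a difference of 0.1 the tandem line is below the dashed line (6.10% against 8.73%) and the convergent line just above it (8.94%).

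Across the 390 pairs Pearson's r between partners' log2 ratios was 0.25, and Spearman's rho was 0.15. Without the mitochondrial chromosome they were 0.15 and 0.09 (n = 380). Leaving out also the pairs Col4a1-Col4a2 and Hspa1a-Hspa1l gave 0.09 and 0.08 (n = 378). The pooled value thus rested largely on these few pairs. With a minimum of 200 reads it was 0.55 over 78 nuclear pairs, and 0.41 without the same 2 pairs. In tandem neighbours the nuclear value was 0.16 and in convergent neighbours 0.02. Points share libraries and, in some pairs, an entry, and counting error lowers a correlation more at low reads. By gap, the median difference was 0.53 in 123 nuclear pairs up to 100 bases apart, 0.58 in 140 pairs over 100 and up to 250, 0.56 in 70 pairs up to 500 and 0.51 in 47 pairs up to 1000, with no steady trend. Pearson's r in the same classes was 0.13, -0.05, 0.25 and 0.52. In 127 nuclear pairs beyond 1000 and up to 5000 bases the median difference was 0.65 and Pearson's r was 0.07.

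**Figure D3:**
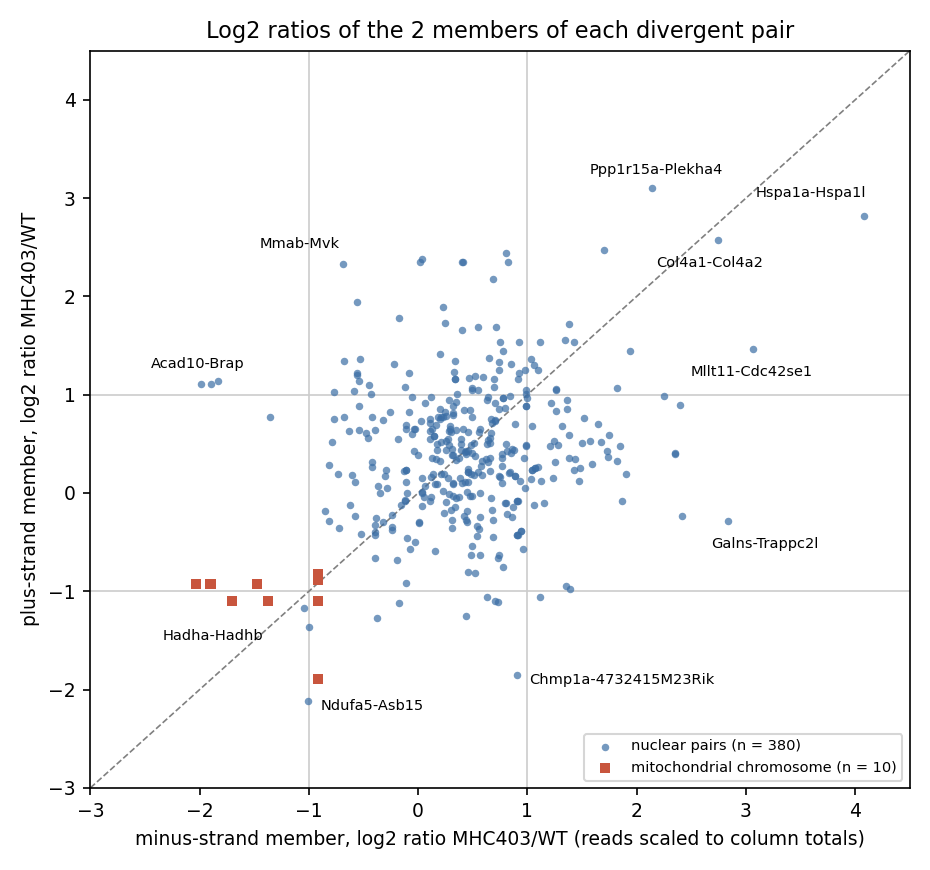
Log2 ratio MHC403 over WT of the minus-strand member (x axis) and the plus-strand member (y axis) of each pair; circles are 380 nuclear pairs, squares 10 pairs of the mitochondrial chromosome, grey lines mark 2-fold and the dashed line equal ratios. Most nuclear pairs form a round cloud near the median of 0.44, with Col4a1-Col4a2 and Hspa1a-Hspa1l far up along the diagonal and Acad10-Brap and Galns-Trappc2l far from it.

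For each pair the ratio of the minus-strand member was divided by that of the plus-strand member, with an exact interval. This ratio of ratios had an interval that left out 1 in 203 of 390 pairs (52.1%). The whole interval lay within 2-fold in 172 pairs (44.1%), within 1.5-fold in 39, and beyond 2-fold in 39. At the median pair the interval spans a factor of 1.49 on either side, which limits what difference could be seen at this depth.

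Both members of the type IV collagen pair were far higher in MHC403. Of the nuclear pairs it has the most reads in its less read member. Col4a1 (minus strand, mm9 chr8:11198423-11312826) and Col4a2 (plus strand, chr8:11312829-11449287) encode chains that assemble together in basement membranes, and their starts are 2 bases apart in the table. Col4a1 had 5825 reads in MHC403 and 870 in WT, a ratio of 6.71 (6.25 to 7.21). Col4a2 had 6678 and 1122, a ratio of 5.96 (5.599 to 6.36). Both genes were far higher in MHC403, and the ratio of ratios was 1.12 (1.02 to 1.24), a far smaller difference than that between the libraries. The fibroblast marker sums given above are higher in MHC403. Smooth muscle and pericyte markers (2 of 5 measured at least 2-fold higher) summed to 411 RPM against 278 in WT, and endothelial markers to 1003 against 790. Median log2 ratios of these 2 marker lists were 0.88 and 0.32, against 0.57 over all measured entries. The part of these cell types in the collagen ratios was not tested.

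The highest ratio among members was in a heat shock pair. Hspa1a, an inducible 70 kDa chaperone (chr17:35106304-35109101), had 625 reads in MHC403 and 37 in WT, a ratio of 16.9 (12.1 to 24.3). Hspa1l, a related chaperone known from testis (chr17:35109648-35116173), had 331 and 47, a ratio of 7.06 (5.19 to 9.80). Hspa1a stood 2.40-fold (1.49 to 3.88) above its partner. Hspa1a has a near-identical copy, Hspa1b, so its reads are uncertain.

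Ppp1r15a, a stress-induced regulatory subunit of protein phosphatase 1 (chr7:52778288-52781638), had 757 reads against 172 in WT, a ratio of 4.41 (3.73 to 5.24). Its partner Plekha4, a pleckstrin homology domain protein (chr7:52781700-52809599), had 77 against 9, a ratio of 8.58 (4.29 to 19.5). These are the genes on either side of the TGACGTCA match printed above, and the interval of their ratio of ratios, 0.514 (0.222 to 1.06), includes 1. Tmem176b and Tmem176a, membrane proteins known from immune cells (chr6:48783811-48791373 and chr6:48791482-48795857), had 403 against 124 and 233 against 42 reads. Their ratios were 3.26 (2.66 to 4.02) and 5.56 (3.99 to 7.92), and Tmem176a stood 1.71-fold (1.15 to 2.58) above its partner. The macrophage marker sums were also higher, and their part was not tested.

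Mllt11 (protein AF1q) had 309 reads against 37, a ratio of 8.37 (5.94 to 12.1), and its partner Cdc42se1, a CDC42 effector, had 245 against 89, 2.76 (2.16 to 3.56). Both were higher, with Mllt11 standing 3.03-fold (1.96 to 4.74) above Cdc42se1. Adam9, a membrane metalloproteinase, had 387 against 101 reads, a ratio of 3.84 (3.08 to 4.83), and Tm2d2 had 214 against 79, 2.71 (2.09 to 3.56). The pair's ratio of ratios was 1.41 (0.993 to 2.01).

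Tln1, the integrin-linked adaptor talin 1 (chr4:43544385-43575455), and Creb3, a transcription factor of the endoplasmic reticulum membrane (chr4:43575506-43579932), start 50 bases apart. Tln1 had 1854 reads against 691, a ratio of 2.69 (2.46 to 2.94), and Creb3 had 231 against 80, 2.89 (2.24 to 3.78). Their ratio of ratios was 0.929 (0.701 to 1.22). The entry mKIAA1027, with a ratio of 2.16 (1.77 to 2.65), shares its start with Tln1 and is not an independent pair. Tm2d2, Cdc42se1, Tln1, mKIAA1027 and Creb3 are within 2-fold with median-of-ratios scaling, which left 4 pairs (1.03%) with both members higher. Those 4 are Col4a1-Col4a2, Hspa1a-Hspa1l, Ppp1r15a-Plekha4 and Tmem176b-Tmem176a.

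Other pairs with both members at least 2-fold higher were mostly closer to 2-fold. Alg3 and Ece2, an endothelin-converting enzyme, had ratios of 2.60 (1.65 to 4.21) and 3.29 (2.00 to 5.65). Hs2st1, which sulfates heparan, and Sep15, a selenoprotein, had 2.09 (1.39 to 3.18) and 2.46 (2.17 to 2.81). Skiv2l, an RNA helicase, and Rdbp, a negative elongation factor subunit, had 2.39 (1.92 to 2.999) and 2.09 (1.39 to 3.20). Zfp408 and Arhgap1 had ratios of 3.54 (1.97 to 6.76) and 2.10 (1.61 to 2.75). For Atp6v1a-Naa50, 1110032A03Rik-Fdxacb1 and Tmed7-Eif1a the ratios lay between 2.05 and 2.57. These pairs were chosen after their values were seen, and in each at least 1 member is within 2-fold with median-of-ratios scaling.

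In 3 nuclear pairs both members were at least 2-fold lower, among them the mitochondrial trifunctional protein of fatty acid oxidation. Its alpha subunit Hadha (chr5:30444844-30481520) had 2193 reads in MHC403 and 4401 in WT, 2.00-fold (1.90 to 2.11) lower. The beta subunit Hadhb (chr5:30481829-30511123) had 679 and 1753, 2.58-fold (2.36 to 2.82) lower. The ratio of ratios was 1.29 (1.16 to 1.43), so the subunits were lower by similar but not equal factors. Ndufa5, a complex I subunit (chr6:24468666-24477687), had 3246 against 6530 reads, 2.01-fold (1.92 to 2.09) lower, and Asb15, a muscle ubiquitin ligase adaptor (chr6:24478144-24523164), had 83 against 362, 4.35-fold (3.42 to 5.59) lower. The third pair was Scarna17-Acaa2, with 55 against 114 reads and 902 against 2040, named here after its values were seen. Cardiomyocyte marker sums were also lower in MHC403, and their part in these values was not tested.

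Hspd1 and Hspe1, the subunits of the mitochondrial chaperonin, had the most similar ratios of the textbook pairs. Hspd1 (chr1:55134678-55144776) had 419 reads in MHC403 and 553 in WT, a ratio of 0.759 (0.667 to 0.864). Hspe1 (chr1:55144992-55148161) had 386 and 519, a ratio of 0.745 (0.652 to 0.852). The ratio of ratios was 1.02 (0.845 to 1.23), which bounds the difference that counting error allows between them. Sirt3, a mitochondrial deacetylase, and Psmd13, a proteasome subunit, start 84 bases apart and had ratios on opposite sides of 1. Sirt3 had 105 reads against 153, a ratio of 0.688 (0.531 to 0.888), and Psmd13 had 308 against 140, a ratio of 2.21 (1.80 to 2.71). Psmd13 stood 3.21-fold (2.30 to 4.47) above Sirt3.

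Of 16 textbook pairs looked for, these 2 and the collagen pair met the rule. Surf1-Surf2 and Ppat-Paics had enough reads but overlap at their starts in the table, by 110 and 219 bases. Others fell short in reads, such as Mrps12-Sars2 (Sars2 with 32 and 46 reads) and Atm-Npat (26 and 25, 28 and 17). In Trp53-Wrap53, Trp53 had 176 reads against 56 and Wrap53 45 against 20.

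The strongest contrasts within a pair mostly joined genes with different known roles, or a gene and an uncharacterised transcript. In many of them a member met the minimum of 50 reads in a single library only, as Galns and Mvk did in MHC403. Such a member was chosen through the library in which it is higher, and how far this choice set the contrasts was not tested. Galns, a lysosomal sulfatase, had 57 reads against 8, a ratio of 7.14 (3.39 to 17.3), and Trappc2l, a vesicle tethering subunit 138 bases away, had 107 against 131, 0.819 (0.628 to 1.06). Galns stood 8.72-fold (3.89 to 21.97) above its partner. Mmab and Mvk act in cobalamin metabolism and in sterol synthesis. Mmab had 62 against 100 reads, a ratio of 0.621 (0.445 to 0.861), and Mvk, mevalonate kinase, had 55 against 11, a ratio of 5.01 (2.59 to 10.6). Mvk stood 8.06-fold (3.78 to 18.3) above Mmab across the 241 bases printed above.

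Brap, a BRCA1-associated ubiquitin ligase (chr5:122110595-122137256), had 144 reads against 67, a ratio of 2.15 (1.60 to 2.92). Acad10, an acyl-CoA dehydrogenase family member on its other side, had 41 against 163, 3.97-fold (2.80 to 5.73) lower. The overlapping entry 9330129D05Rik had 89 against 331, 3.71-fold (2.93 to 4.74) lower, and shares its start with Acad10, so these 2 pairs are 1 place in the genome. Pacsin3, an endocytic adaptor of muscle, had 1123 against 511, a ratio of 2.20 (1.98 to 2.45), while the transcript AK132189 had 19 against 68, 3.57-fold (2.12 to 6.29) lower. Zfp142, a zinc finger protein, had 117 against 54, a ratio of 2.17 (1.56 to 3.06), and Bcs1l, a complex III assembly chaperone, had 24 against 50, 2.08-fold (1.25 to 3.54) lower. These are the 4 pairs with members past 2-fold in opposite directions. Acad10, AK132189 and Bcs1l met the read minimum in WT alone, and the other members of these pairs met it in both libraries. With median-of-ratios scaling Brap, Pacsin3 and Zfp142 fall within 2-fold, and the 2 opposite pairs are then Mmab-Mvk and Acot13-AK140178, though not Acot13-Tdp2 or Acot13-TTRAP, whose plus-strand members fall within 2-fold.

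Cpeb3, an mRNA-binding regulator of translation, had 170 reads against 437, 2.57-fold (2.14 to 3.08) lower, and March5, a mitochondrial ubiquitin ligase 36 bases away, had 300 against 176, a ratio of 1.71 (1.41 to 2.07). Their ratios differed by 4.38-fold (3.36 to 5.71). Rab24, a small GTPase, had 118 against 117 reads, a ratio of 1.01 (0.776 to 1.32), and Prelid1, a mitochondrial lipid transfer protein, had 250 against 49, 5.11 (3.75 to 7.10). Acot13, an acyl-CoA thioesterase, had 1426 against 2108, a ratio of 0.678 (0.634 to 0.726), and AK140178 had 69 against 18, 3.84 (2.26 to 6.86). AK140178 is a cDNA of the gene that is also listed as Tdp2, a DNA repair enzyme, and as TTRAP, with a start close by. Tdp2 had 85 against 37 reads, a ratio of 2.30 (1.55 to 3.48), and TTRAP 84 against 36, 2.34 (1.56 to 3.56), so the listing decides how far this place differs from Acot13. Chmp1a, an endosomal sorting protein, had 395 against 212, 1.87 (1.58 to 2.22), and 4732415M23Rik had 16 against 58, 3.62-fold (2.05 to 6.74) lower. Polr2f, a subunit shared by the RNA polymerases, had 601 against 710, 0.848 (0.760 to 0.947), and 1700088E04Rik 80 against 15, 5.35 (3.05 to 9.99). In each of these 5 pairs the libraries set 1 member clearly apart and the other near 1 or on the opposite side. Prelid1, AK140178 and 1700088E04Rik met the read minimum in MHC403 alone, and 4732415M23Rik in WT alone. Cpeb3 and March5 met it in both libraries.

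**Figure D4:**
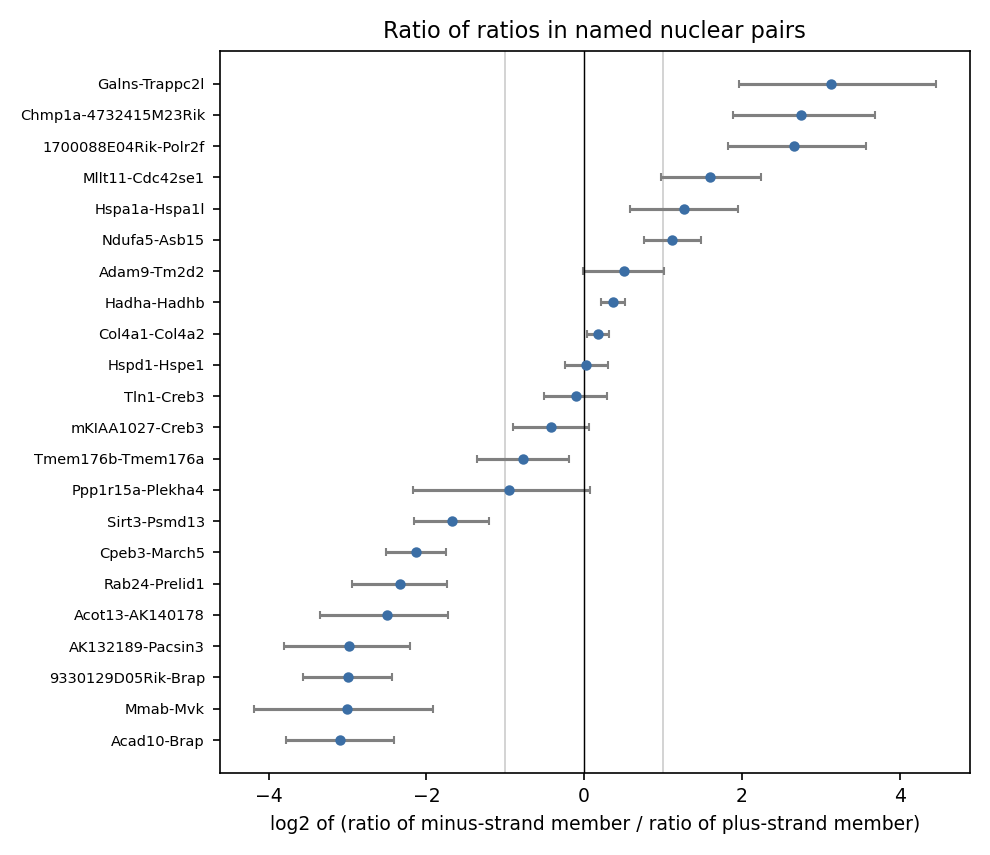
Log2 of the ratio of the minus-strand member divided by the ratio of the plus-strand member (x axis) for named nuclear pairs (y axis), with exact 95% counting intervals as bars; grey lines mark 2-fold. The intervals of Hspd1-Hspe1 and Tln1-Creb3 include 0, Col4a1-Col4a2 lies just above it, and the 10 pairs with the farthest bounds, from Acad10-Brap at the bottom to Galns-Trappc2l at the top, lie wholly beyond 2-fold, as does Sirt3-Psmd13.

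By description or symbol 61 of 711 nuclear members (8.58%) were mitochondrial proteins, against 372 of 9474 measured nuclear entries (3.93%), and 52 of them lay within 2-fold, 4 above and 5 below. Their median log2 ratio was -0.20. Over all 372 measured nuclear entries of the kind the median was -0.14, with 15 higher and 20 lower. The rule by description leaves out some, such as Hadha and Sdhd, takes in Cox4nb, which only neighbours a COX4 gene, and counts Mrps11 also as MRPS11. In 55 nuclear pairs exactly 1 member was mitochondrial, with a median of -0.20 against 0.31 for the partners. The mitochondrial member was the lower of the 2 in 44 pairs (80.0%) and the higher in 11. Some of the 44 are repeated listings of 1 place, such as Mrps7 beside Gga3 and mKIAA0154, and Mrpl18 beside Tcp1 and AK163149. Setting every measured mitochondrial entry against each of 9102 other nuclear entries gave 77.8%, so the share within pairs was near the background. The partners' median of 0.31 compares with 0.48 in all other nuclear members and 0.60 in other measured nuclear entries.

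Rps28, a protein of the small cytosolic ribosomal subunit, and Ndufa7, a complex I subunit, come next after Col4a1-Col4a2 among nuclear pairs by the reads of the less read member. Rps28 had 7210 reads against 4901, a ratio of 1.47 (1.42 to 1.53), and Ndufa7 had 1615 against 2085, 0.776 (0.727 to 0.829). Rps28 stood 1.90-fold (1.76 to 2.05) above Ndufa7, a difference far beyond counting error. Similar contrasts of a lower mitochondrial member were seen in Ndufs1 (log2 ratio -0.79) beside the elongation factor Eef1b2 (0.52), Uqcrh (-0.54) beside Lrrc41 (0.65) and Mrpl18 (-0.77) beside the chaperonin subunit Tcp1 (0.76). The reverse was seen in Prelid1 (2.35) beside Rab24 (0.02) and Hagh (1.10) beside Fahd1 (-0.45). All of these but Rab24-Prelid1 were chosen after their values were seen. Tcp1, Lrrc41 and Eef1b2 are within 2-fold with either scaling, and Hagh with median-of-ratios scaling.

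**Figure D5:**
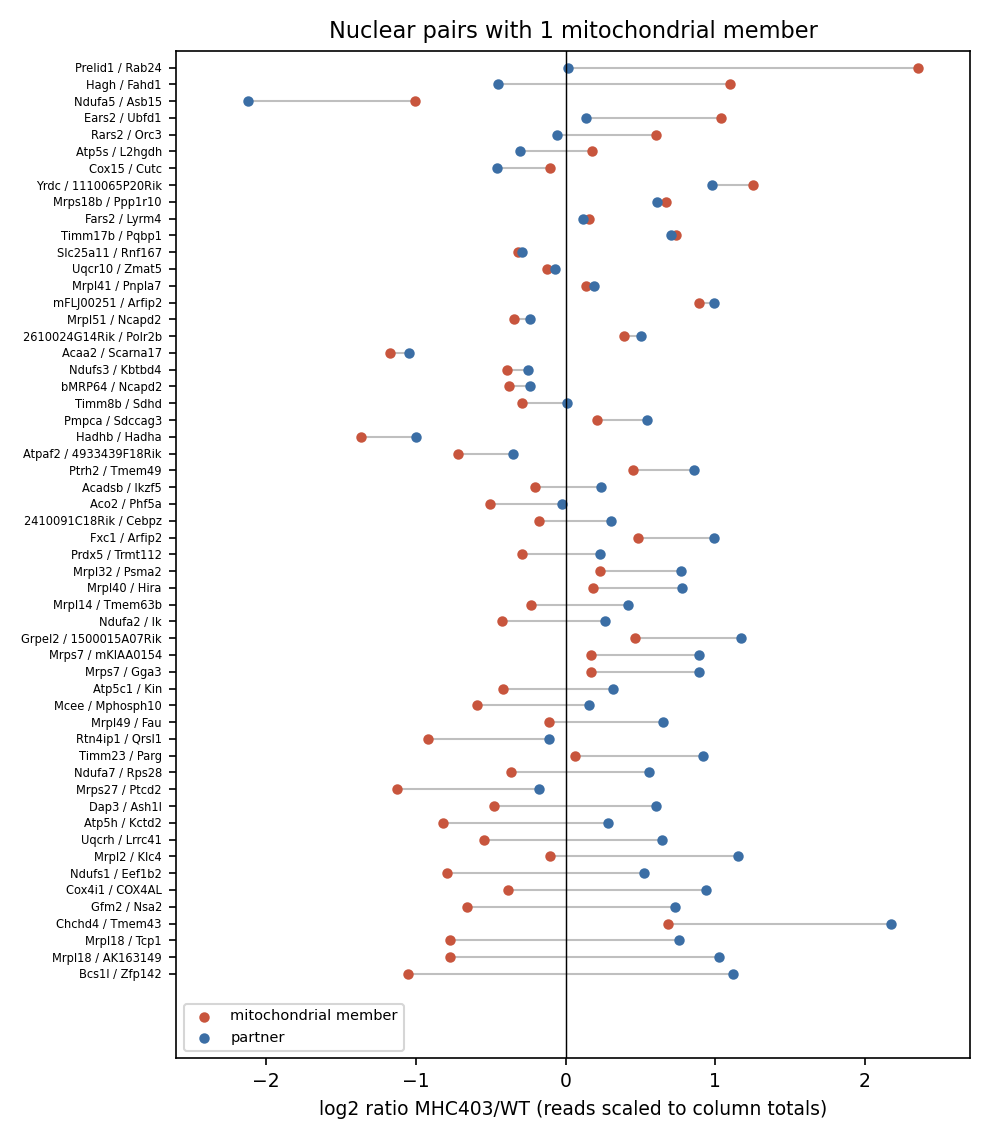
Log2 ratio MHC403 over WT (x axis) of the mitochondrial member and of its partner in 55 nuclear pairs (y axis), ordered by their difference, with a line joining the 2 members. The mitochondrial member lies left of its partner in 44 pairs and right of it in 11.

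In the other groups most members were within 2-fold. These groups were set by words in the description or by the form of the symbol, and they overlap. Mitochondrial ribosomal proteins, for example, are also counted in the RNA and ribosome group. The RNA and ribosome group took descriptions with terms such as ribosome, splicing, tRNA or exosome. Of its 53 members 5 had higher and 1 had lower ratios past 2-fold. Their median was 0.34, against 0.44 over 365 measured entries of the kind. The lower member, Mrps27, and Ears2 among the higher ones are also in the mitochondrial group. Of 20 proteasome and ubiquitin members 4 were higher and none lower (median 0.77, against 0.57 over 244), and of 14 zinc finger members 3 were higher and none lower (0.43, against 0.63 over 225). All 6 members whose description names DNA repair or replication terms were within 2-fold. This match leaves out some, such as Tdp2 with its ratio of 2.30, and counts Swi5 also as 2900010J23Rik. Of 74 members called uncharacterised by the form of their symbol alone, such as names ending in Rik, 12 were higher and 6 lower. Some of them have a named product, as AK163149 does, a cDNA of Tcp1. The background over all measured entries is the 26.1% and 2.43% given above, but the kinds differ in their own shares. Over all measured nuclear entries 32 of 365 RNA or ribosome entries were higher and 4 lower. For proteasome and ubiquitin these counts were 45 and 0 of 244, and for zinc finger 66 and 1 of 225. For DNA repair and replication they were 5 and 0 of 26, and for uncharacterised entries 213 and 32 of 862.

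At the smallest gaps, Tubgcp2, a gamma-tubulin complex component, had 91 reads against 69, a ratio of 1.32 (0.956 to 1.84), and Zfp511 had 66 against 21, 3.15 (1.90 to 5.42), with a gap of 0. The entry 2810004N23Rik, 3 bases from Gnpat, an enzyme of ether lipid synthesis, had 257 against 453, 1.76-fold (1.51 to 2.06) lower, and Gnpat 514 against 629, 1.22-fold (1.09 to 1.38) lower. At the largest gap, Sgsm2 had 74 against 36, 2.06 (1.37 to 3.16), and Tsr1, a ribosome maturation factor at the far end of the gap range, 127 against 108, 1.18 (0.905 to 1.54). The entry mKIAA1401 repeats Tsr1. Urod, an enzyme of heme synthesis, and Hectd3, 972 bases apart, had ratios of 1.13 (0.944 to 1.35) and 1.42 (1.04 to 1.93). Neither the smallest nor the largest gaps hold only similar or only different members.

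On the mitochondrial chromosome all 10 pairs had both members below a ratio of 1, and in 2 of them both were at least 2-fold lower. The complex I gene mt-Nd6 had 57154 reads in MHC403 and 148331 in WT, 2.59-fold (2.56 to 2.61) lower, and mt-Cytb had 55312 and 118636, 2.14-fold (2.12 to 2.16) lower. The entry mt-tRNA-Glu, with 3309 and 10821 reads, was 3.26-fold (3.14 to 3.39) lower and also pairs with mt-Cytb. The tRNA entries for Tyr, Asn, Cys and Ala pair with mt-Co1, which was 1.90-fold (1.89 to 1.91) lower, and mt-tRNA-Tyr, at 2.79-fold (2.34 to 3.33), mt-tRNA-Asn, at 3.72-fold (3.18 to 4.37), mt-tRNA-Cys, at 3.74-fold (3.02 to 4.67), and mt-tRNA-Ala, at 4.09-fold (3.31 to 5.10), were lower by more. The minus-strand entry mt-tRNA-Ser, 1.89-fold (1.35 to 2.66) lower, is in the other 4 pairs, with mt-Atp6 (1.77-fold lower), mt-Atp8 (2.14), mt-Co2 (1.85) and mt-tRNA-Lys (3.72). Neighbouring entries there are close together, so single entries are uncertain.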

How the data were processed

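Heart RNA was compared between the 2 groups, 1 pooled library each, per the labels. The read counts used are whole numbers for each listed entry, as deposited and unscaled per the file headers. The deposited RPM values were recomputed from the column totals, and the deposited fold is their ratio. The deposited p-value was left out, its test being unknown here, and the deposited score of start sites is printed only as the authors give it. TopHat 1.0.14 and mm9 come from the submitters' processing notes. A counting program, its strand setting and its handling of multiply matching reads were not given in the sources used here.

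Starts in the table were counted from 0, checked by 7022 entries whose End minus Start equals the RefSeq gene length, and are written counted from 1. The gap is Start of the plus-strand entry minus End of the minus-strand entry. A library with 0 reads would be set to 3 reads. Ratios have exact Clopper-Pearson intervals conditional on an entry's reads in both libraries, and ratios of ratios exact conditional (Fisher) intervals, computed with scipy 1.17.1 and R 4.3.3 and tested on simulated data. TMM factors came from edgeR 4.0.16, which made no test. With 1 library a group no test was possible, and called means past 2-fold. Reads carry no molecular identifiers here, so intervals leave out amplification and animal variation. Shares over all combinations of entries are complete counts.

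Pairs, lists and rules were chosen with earlier results of these data known. Named pairs were textbook pairs, the 8 with both members above and the 8 with both below a ratio of 1 by the interval bound of the less different member, the 10 whose ratio of ratios has its nearer bound farthest from 1, the 4 with the smallest and the 4 with the largest gap, the 4 with the most reads in the less read member, and all pairs past 2-fold in opposite directions. The sets of all member combinations and of nuclear neighbours were added after the values were seen. Promoter sequences are from RefSeq (GRCm38.p6), matched by symbol, and no coordinates were converted between builds. A few items are not reported here.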

Additional observations from a re-analysis of the deposited data

How the results depend on the processing

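The 6 pair measures were recomputed under 11 planned settings and 5 chosen after seeing the data. A share counted as moved when it left 1.5 times the reported one, a correlation when it shifted by over 0.1, and the measures not named under a setting did not move. Scaling by median-of-ratios or by TMM gave the same shares, 1.03% both higher, 3.33% both lower and 0.513% opposite, because it shifts every ratio down. At 20 reads both were lower in 0.753%, and at 100 reads over both libraries 0.59% were opposite. At 200 reads, in 84 pairs, both were higher in 8.33% and lower in 4.76%, 0% were opposite and the correlation was 0.65. Without the mitochondrial chromosome at 200 reads these were 8.97%, 2.56%, 0% and 0.55, and without Col4a1-Col4a2 and Hspa1a-Hspa1l as well 6.58%, 2.63%, 0% and 0.41. With only 1 read asked of each library, in 1081 pairs, both were lower in 0.555%, 1.85% were opposite, the median difference was 0.70 and the correlation 0.0906. At gaps up to 250 bases both were lower in 0.741%. At gaps up to 5000 bases both were lower in 6.70% and the correlation was 0.49, while in nuclear pairs beyond 1000 bases both were lower in 1 of 127. Without the mitochondrial chromosome both were lower in 0.789%, and without the 2 pairs above as well in 0.794%, with a correlation of 0.0942. In pairs that share no entry 0.683% were opposite. The cause of the changes with the read minimum was not tested. No paired analysis was possible because each group has 1 library. Within 10 reads inside the read minimum (less read member) the median difference was 0.61 in 56 pairs, and within 10 reads outside it 0.73 in 62. Within 100 bases inside and outside the largest gap it was 0.81 and 0.99, in 6 nuclear pairs each.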

Other observations

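The authors' deposited table gives a start-site score above 0 to 299 of 711 nuclear members (42.1%) and to 36.2% of all measured entries. In the authors' deposited table the highest scores among members are 74 for Acaa2, a thiolase of fatty acid oxidation, 71 for Abhd4, a lipid hydrolase, and 65 for Adk, adenosine kinase. Adk itself had nearly equal reads, 394 in MHC403 and 396 in WT.

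Pairs of protein-coding genes were the rule. In 331 nuclear pairs RefSeq lists both members as protein coding, and their median difference was 0.53 (log2). In 40 nuclear pairs with a member that has no RefSeq match by symbol it was 0.80, and 45.0% of them were 2-fold or more apart against 24.2% of the coding pairs. That difference was not tested. Some deeply read pairs of housekeeping genes had nearly equal ratios, chosen here after their values were seen. Cbx5, a heterochromatin protein, had a ratio of 1.27 (1.08 to 1.498) and the splicing factor entry Hnrnpa1chr15+ 1.27 (1.17 to 1.37). Atp6v1d, a proton pump subunit, had 1.25 (1.07 to 1.46) and the initiation factor Eif2s1 1.31 (1.11 to 1.56). Sdha, a succinate dehydrogenase subunit, had 0.698 (0.661 to 0.736) and Ccdc127 0.748 (0.622 to 0.899). All 6 were within 2-fold, and with median-of-ratios scaling the ratios of Cbx5, Hnrnpa1chr15+, Atp6v1d and Eif2s1 fall below 1.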
